A study of Rattus norvegicus with 15 samples.

Results

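The retina runs its own circadian clock, and 10 genes of its auxiliary loops and output arm were followed here on rat expression arrays. They are the nuclear receptor genes *Nr1d1*, *Nr1d2*, *Rora* and *Rorb*, the bZIP factor genes *Dbp*, *Tef*, *Hlf* and *Nfil3*, and the bHLH repressor genes *Bhlhe40* and *Bhlhe41*. A probe set, the group of short probes that reports 1 transcript, was taken when the array annotation gave it exactly 1 gene symbol and that symbol was 1 of the 10. This rule used no measured value and found 19 of the 31099 probe sets, with all 10 genes represented among 14217 gene symbols. *Hlf* had 4 probe sets, *Nr1d2* and *Tef* had 3 each, *Rora* and *Rorb* had 2 each, and the other 5 genes had 1 each. Where 1 value stands for a gene, it is that of its brightest probe set. The probe sets of a gene are read from the same arrays and are not replicates.

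All samples were whole retinas of adult male Long Evans rats that had spent the night in darkness, and no group carried an engineered allele or received a drug. Zeitgeber time (ZT) counts hours from the usual onset of light at clock hour 7. The 5 conditions, with 3 arrays each, were darkness at 0 ZT, darkness at 3 ZT (clock hour 10), light of 1000 lux for 3 h up to 3 ZT, darkness at 6 ZT (clock hour 13) and light for 6 h up to 6 ZT. For the last condition the sample titles and the methods give 6 h of light, while other labels of the same samples say 3. For the PCR samples of the same study the text states that lenses were removed and retinas of several rats pooled. Neither is stated of the array samples, so a p-value here reflects how much these 15 arrays scatter, which may be technical. Values are log2 units, in which 1 unit is a change of 2-fold. The number of arrays limits the precision, and in whole retina fewer cells of a type and less RNA per cell cannot be told apart.

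In the core of the clock, CLOCK and BMAL1 bind E-boxes and drive transcription of their own repressors and of many output genes. REV-ERB proteins (from *Nr1d1* and *Nr1d2*) and ROR proteins (from *Rora* and *Rorb*) compete for response elements called ROREs, where the former repress and the latter activate, and so shape the rhythm of *Bmal1*. The PAR bZIP factors DBP, TEF and HLF activate genes through D-boxes, which NFIL3 binds as a repressor, and the proteins of *Bhlhe40* and *Bhlhe41* bind E-boxes and oppose CLOCK and BMAL1. RORB has in addition a developmental role in the retina, where rods and some inner neurons depend on it.

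The stretches just upstream of the transcription start are shown first for *Rorb*, which had the lowest p-value among these genes for any difference between the conditions, and then for the 4 genes that held the E-box CACGTG there. Each run has 250 bases read 5′ to 3′ on the strand of its gene and ends at the base before the start, as RefSeq gives it for assembly GRCr8. Capitals mark the E-box, and *Rorb* has none. *Rorb* lies on the minus strand at chr1:225970974-225971223, *Nr1d1* (the 1 of its 2 listed starts with an E-box) on the minus strand at chr10:84229455-84229704, *Tef* on the plus strand at chr7:115206577-115206826, *Bhlhe40* on the plus strand at chr4:143174200-143174449, and *Bhlhe41* on the minus strand at chr4:180569356-180569605.
Rorb: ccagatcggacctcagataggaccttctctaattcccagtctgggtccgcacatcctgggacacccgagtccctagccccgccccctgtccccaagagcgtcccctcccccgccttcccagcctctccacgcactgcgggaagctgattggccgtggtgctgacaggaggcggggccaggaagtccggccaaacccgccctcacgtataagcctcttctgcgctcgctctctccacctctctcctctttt
Nr1d1: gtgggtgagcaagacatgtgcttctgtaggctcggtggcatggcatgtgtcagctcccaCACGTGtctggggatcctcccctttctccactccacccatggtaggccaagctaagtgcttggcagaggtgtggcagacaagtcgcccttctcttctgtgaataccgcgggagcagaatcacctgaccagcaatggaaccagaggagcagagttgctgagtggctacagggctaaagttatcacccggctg
Tef: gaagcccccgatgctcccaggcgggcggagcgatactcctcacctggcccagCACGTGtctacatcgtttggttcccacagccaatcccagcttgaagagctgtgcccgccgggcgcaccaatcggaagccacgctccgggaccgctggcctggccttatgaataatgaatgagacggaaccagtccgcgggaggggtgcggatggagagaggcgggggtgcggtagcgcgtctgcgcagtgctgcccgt
Bhlhe40: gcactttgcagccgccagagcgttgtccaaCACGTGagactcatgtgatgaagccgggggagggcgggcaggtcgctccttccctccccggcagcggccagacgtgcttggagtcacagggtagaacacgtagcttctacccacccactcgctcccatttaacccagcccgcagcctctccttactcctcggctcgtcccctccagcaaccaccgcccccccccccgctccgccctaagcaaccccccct
Bhlhe41: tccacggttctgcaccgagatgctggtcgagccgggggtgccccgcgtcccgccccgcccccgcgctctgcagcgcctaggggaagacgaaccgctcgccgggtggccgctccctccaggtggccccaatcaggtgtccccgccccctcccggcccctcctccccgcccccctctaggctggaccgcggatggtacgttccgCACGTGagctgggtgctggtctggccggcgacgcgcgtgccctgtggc

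Every motif was searched on both strands in windows of 300 bases, the 250 upstream and the first 50 after the start. An entry was found for 9 of the 10 genes, 10 starts in all, and *Hlf* was not matched. The E-box stood in 4 of these 10 windows, which belonged to 4 of the 9 genes, against 6.42% of the 33469 windows in the table. Counted from the start, with upstream positions negative, the first base of the match lay at −191 in *Nr1d1*, −198 in *Tef*, −220 in *Bhlhe40* and −48 in *Bhlhe41*. The core AGGTCA, which the full ROREs contain or resemble, was found in *Nr1d2* only, at −187, against 16.2% of all windows. No window of these genes held a D-box (TTATGTAA, in 0.893% of all windows, or TTACGTAA, in 0.12%), a full RORE (0.771%) or the cAMP response element TGACGTCA (1.83%). These matches describe letters and are not evidence of binding.

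A pair of arrays stood apart by the difference between the 3′ and 5′ control probe sets of *Actb*, a measure of how complete the copied RNA is. It was 2.40 in replica 2 of 3 ZT light and 2.10 in replica 1 of 0 ZT dark, and 0.708 to 1.37 in the other 13. The array of 3 ZT light replica 2 gave the lowest of the 5 replica 2 values for 11 of the 19 probe sets, and for 8 of the 10 brightest ones, against 27.7% of all probe sets. It gave the highest for 4 of the 19, against 33.2%. Without this array, 7 of the 19 probe sets were higher and 12 lower in light at 3 ZT, with a median of −0.03, where all arrays gave 4, 15 and −0.11. Values without it stand beside the 3 ZT results, and the part of the *Actb* difference in them was not tested. Photoreceptor markers averaged 15.02 to 15.24 in all 15 arrays, so the defining markers of retina were present. Lens and pigment epithelium markers, which vary between the groups at 3 and at 6 ZT, are given with the markers of other tissues.

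No probe set of the 10 genes passed an adjusted p of 0.05 in any of 9 tests with limma, which were light against darkness at 3 and at 6 ZT, their mean, their difference, each of the other conditions against 0 ZT dark, and any difference among the 5 conditions. The same threshold was passed by 1 of the 31042 probe sets tested for light against darkness at 3 ZT (0.00322%), by none at 6 ZT (0%) and by 2 for the mean of both light effects (0.00644%). At an unadjusted p under 0.05, 2 of the 19 passed at 3 ZT (*Rorb* and *Tef*), both lower in light, against 4.59% of all probe sets in either direction and 2.64% in this one. At 6 ZT 4 of the 19 passed (both of *Rorb*, *Nr1d1* and the dimmer of *Rora*), all lower in light, against 8.53% and 2.97%. For the mean of both, 4 of the 19 passed (both of *Rorb*, *Nr1d1* and the brightest of *Tef*), again all lower, against 6.33% and 2.06%. The single direction depended on replica 2 of 3 ZT light. Without it, 1 of the 19 was higher and 1 lower at 3 ZT, against 3.03% of all in either direction. The higher one was the dimmest of *Nr1d2* and the lower one the brighter of *Rorb*. At 6 ZT, 1 was then higher and 4 lower, against 10.7%, while the median of the 19 there stayed at −0.07. For the mean of both, 1 was then higher and 3 lower, against 5.54%. For the difference of both light effects 2 of the 19 passed, against 5.95%, and for any difference among the conditions 5 of the 19, against 6.8%. Without regard to any threshold, 5 of the 19 probe sets were higher in light on average, against 46.2% of all, and the median of the 19 was −0.09 against −0.0091 over all probe sets tested. With replica 2 of 3 ZT light left out, this median was −0.03 against −0.0076, and 5 of the 19 were again higher.

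**Figure D1:**
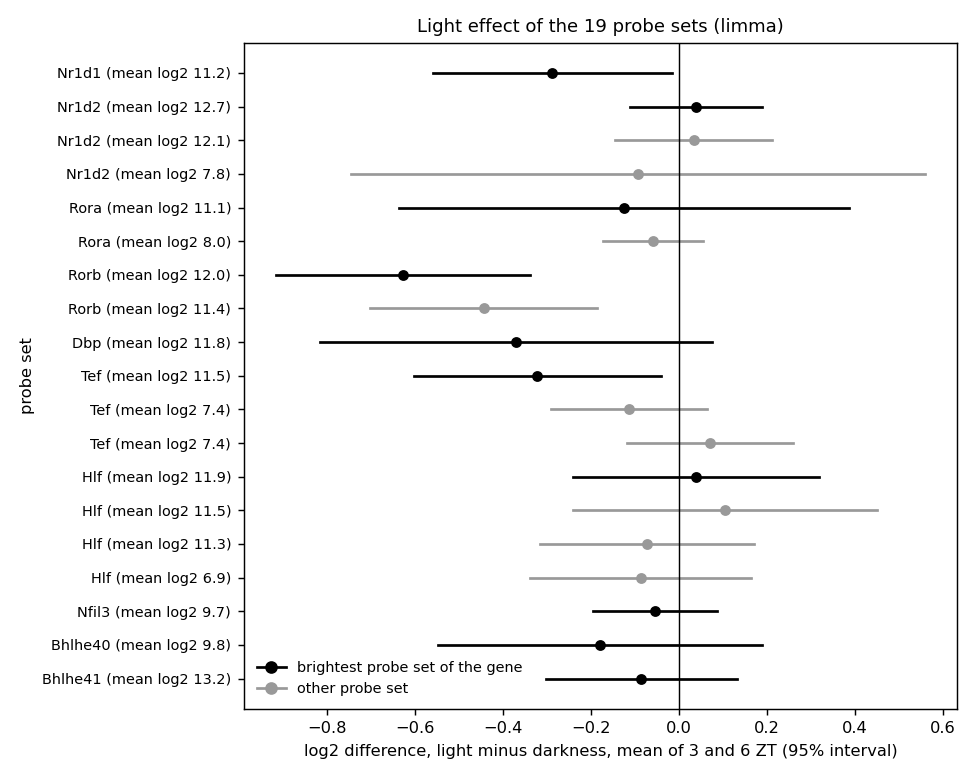
Mean of the light effects at 3 and 6 ZT for each of the 19 probe sets, as the log2 difference between light and darkness with its 95% interval from limma, black for the brightest probe set of a gene and grey for others. With all arrays in the fit, the intervals of both *Rorb* probe sets, *Nr1d1* and the brightest *Tef* probe set lie below 0. None of these passed after adjustment over all probe sets.

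*Rorb* was lower in light than in darkness in all 6 pairs of arrays with the same replica number, by its brighter probe set. A probe set lower in 6 of 6 pairs was found in 1 of these 19, against 1.18% of all. At 3 ZT the values were 12.18, 12.40 and 12.52 in darkness and 12.02, 11.24 and 11.34 in light. The groups did not overlap, which held for 0.954% of all probe sets in this direction, and replica 1 of the light group lay closest to darkness. At 6 ZT the values were 12.27, 11.99 and 12.12 in darkness and 11.84, 11.82 and 11.46 in light. Here too every array in light lay below every array in darkness (1.19% of all probe sets). The control at 0 ZT read 12.26, 12.44 and 12.39, so in order of the means 3 ZT dark and 0 ZT dark stood level at 12.37, followed by 6 ZT dark at 12.12, 6 ZT light at 11.71 and 3 ZT light at 11.53. Neighbours in this order other than 6 ZT dark and 6 ZT light overlapped in their single arrays.

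By limma, the brighter *Rorb* probe set differed by −0.83 (SE 0.184, 95% interval −1.24 to −0.43) between light and darkness at 3 ZT, a ratio of 0.561, with an adjusted p of 0.895. At 6 ZT the difference was −0.42 (SE 0.184, adjusted p = 0.581 by limma), a ratio of 0.748. The effect at 6 ZT minus that at 3 ZT was 0.42 (SE 0.261, adjusted p = 0.777 by limma), so a difference between both times was not shown. The mean of both effects was −0.63 (SE 0.130), with an unadjusted p of 6.3e-04 and an adjusted p of 0.571 by limma. Without the pair of arrays with the large *Actb* difference it was −0.55, and the effect at 3 ZT was −0.69.

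The dimmer *Rorb* probe set had its larger difference at the other time. At 3 ZT it read 11.35, 11.61 and 12.14 in darkness and 11.49, 11.39 and 11.54 in light, so all light values lay within the dark range. At 6 ZT it read 11.21, 11.51 and 11.99 in darkness and 10.38, 11.12 and 11.22 in light. In each pair of the same number light was the lower one, while replica 3 in light was level with replica 1 in darkness. Limma gave −0.23 (SE 0.165, adjusted p = 0.895) at 3 ZT, or −0.19 without replica 2 of 3 ZT light, and −0.66 (SE 0.165, 95% interval −1.03 to −0.30, adjusted p = 0.470) at 6 ZT. When arrays were weighted by their fit, both *Rorb* probe sets passed for light against darkness at 6 ZT. So did many other probe sets of the array, and 6 ZT light replica 3 had a weight of 7.45. The counts are given with the processing alternatives.

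**Figure D2:**
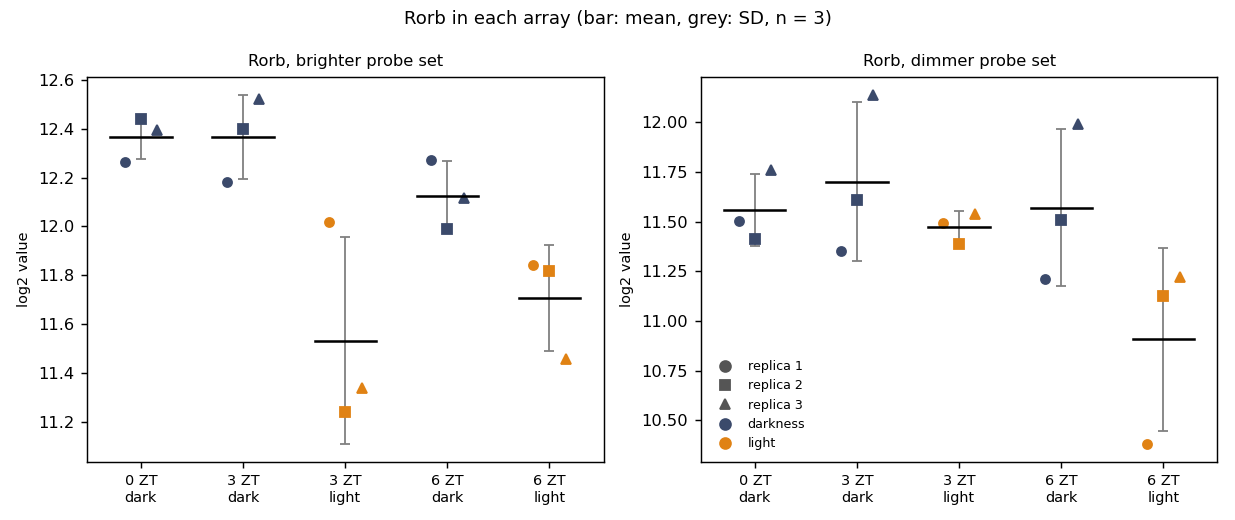
Log2 values of the 2 *Rorb* probe sets in each of the 15 arrays by condition, with bars at the mean and grey error bars of 1 SD (n = 3). In the brighter probe set the light arrays at 3 ZT lie between 11.24 and 12.02 and all dark arrays between 11.99 and 12.52.

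*Rora*, the other ROR gene, which is widely expressed in neurons, did not share this pattern in its brighter probe set. It read 10.90, 11.06 and 11.31 in darkness and 11.14, 9.75 and 11.74 in light at 3 ZT. In light at 3 ZT, 2 arrays were above their dark partners and replica 2 was far below, and this is the array with the largest *Actb* difference. The mean light effect was −0.12 (SE 0.231, adjusted p = 0.876 by limma) with all arrays and 0.15 without both arrays of large *Actb* difference. At 3 ZT alone it was −0.22, and 0.32 without replica 2 in light. At 6 ZT the effect was −0.03 (SE 0.327, 95% interval −0.76 to 0.69).

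The dimmer *Rora* probe set varied little within a replica number, and in 7 of 30 pairs of arrays with the same number its value was exactly equal. At 6 ZT it read 7.68, 7.96 and 8.37 in darkness and 7.58, 7.67 and 8.11 in light, lower in light within every number although the groups overlapped. The difference was −0.22 (SE 0.0723, 95% interval −0.38 to −0.06), with an unadjusted p of 0.0125 and an adjusted p of 0.520 by limma. At 3 ZT the difference was 0.10 (SE 0.0723, adjusted p = 0.895 by limma) with all arrays and 0.05 without replica 2 in light, and the effects at the 2 times differed by −0.32 (adjusted p = 0.776 by limma).

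*Nr1d1* encodes REV-ERBα, and its single probe set was lower in light in 5 of 6 pairs. At 6 ZT it read 11.35, 11.93 and 11.39 in darkness and 11.05, 11.31 and 11.06 in light. The groups at 6 ZT did not overlap, a state found in this direction for 2 of the 19 probe sets (the other was the brighter one of *Rorb*) and for 1.19% of all. None of the 19 lay wholly above darkness at 3 ZT (0.39% of all) or at 6 ZT (2.33%). At 3 ZT it read 11.08, 10.85 and 11.39 in darkness and 10.66, 11.11 and 11.07 in light, with replica 2 higher in light. Limma gave −0.42 (SE 0.174, 95% interval −0.81 to −0.04, adjusted p = 0.562) at 6 ZT and −0.15 (SE 0.174, adjusted p = 0.909) at 3 ZT, or −0.20 without replica 2 in light. Replica 2 in darkness at 6 ZT was the highest of its 15 values, and without that array the effect at 6 ZT was −0.25. The array in question does not have a large *Actb* difference.

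*Nr1d2*, which encodes REV-ERBβ, was not below its dark level at 6 ZT. Its brightest probe set read 12.52, 12.71 and 12.82 in darkness and 12.64, 12.98 and 13 in light, higher in light within each number but overlapping between groups. At 6 ZT 3 of the 19 probe sets were higher in light in all 3 pairs (2 of *Nr1d2* and *Bhlhe41*), against 17.2% of all, and 5 were lower in all 3 (both of *Rorb*, the dimmer of *Rora*, *Nr1d1* and *Dbp*), against 13.5%. The difference was 0.19 (SE 0.096, 95% interval −0.02 to 0.40, adjusted p = 0.602 by limma). At 3 ZT it was −0.11 (SE 0.096, adjusted p = 0.895 by limma), and −0.01 without replica 2 in light, while replica 1 read 12.60 in both groups. A second probe set gave 0.15 (SE 0.114) at 6 ZT and −0.09 at 3 ZT, or 0.06 without replica 2 of 3 ZT light. The dimmest spread from 5.77 to 8.94 over the arrays, with its lowest value in 3 ZT light replica 2, and had an SE of 0.417. Its difference at 3 ZT was −0.21 with that array and 0.51 without it. The REV-ERB genes thus had mean light effects of −0.29 for *Nr1d1* (SE 0.123) and 0.04 for *Nr1d2* (SE 0.0679), and the difference between these genes was not tested.

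**Figure D3:**
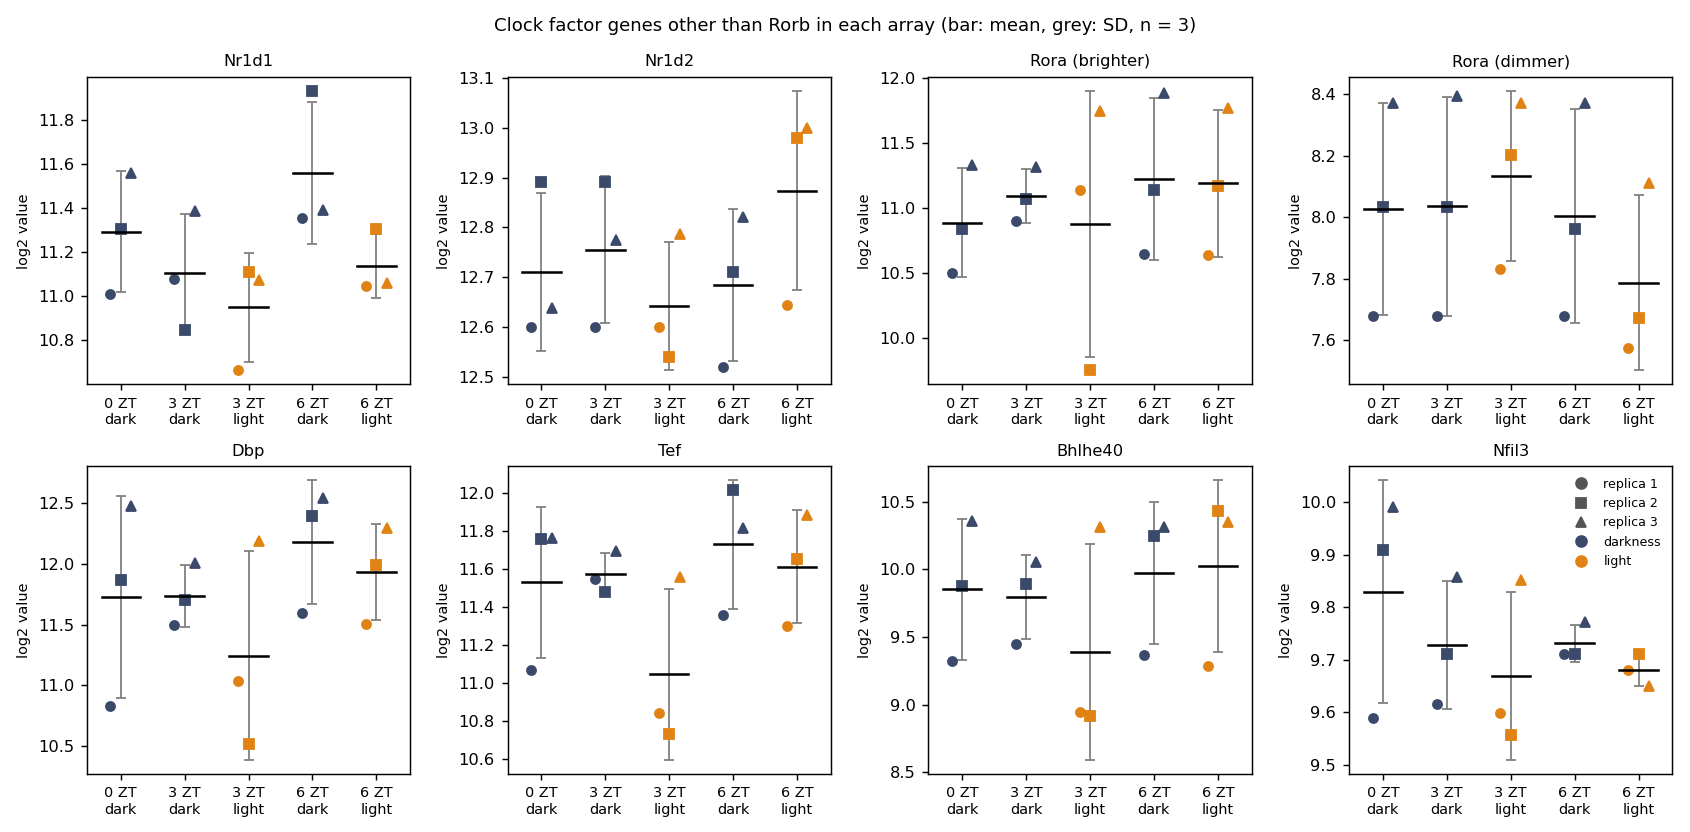
Log2 values in each of the 15 arrays for 8 probe sets of 7 genes by condition, with bars at the mean and grey error bars of 1 SD (n = 3); each panel has its own axis. *Nr1d1* at 6 ZT is lower in all light arrays (11.05 to 11.31) than in all dark arrays (11.35 to 11.93), while *Dbp*, *Tef*, *Bhlhe40* and brighter *Rora* have their lowest values in replica 2 of 3 ZT light.

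*Dbp*, the PAR bZIP gene with the most prominent rhythm in many tissues, was lower in light in 5 of 6 pairs. At 3 ZT it read 11.50, 11.70 and 12.01 in darkness and 11.03, 10.51 and 12.19 in light. At 6 ZT it read 11.60, 12.39 and 12.54 in darkness and 11.51, 11.99 and 12.29 in light. The groups overlapped at both times, and the SD within a condition reached 0.86. The differences were −0.49 (SE 0.285, adjusted p = 0.895 by limma) at 3 ZT and −0.25 (SE 0.285, adjusted p = 0.798 by limma) at 6 ZT. Their mean was −0.37 (SE 0.201). Without replica 2 of 3 ZT light the difference at 3 ZT was −0.08 and the mean −0.16.

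*Tef* was lower in light in all 3 pairs at 3 ZT by its brightest probe set. This held for 3 of the 19 probe sets (with the brighter of *Rorb* and *Nfil3*) and for 9.43% of all, while none of the 19 was higher in all 3 pairs (7.71% of all). It read 11.54, 11.48 and 11.69 in darkness and 10.84, 10.73 and 11.56 in light, where replica 3 in light still overlapped darkness. The difference was −0.53 (SE 0.179, 95% interval −0.92 to −0.13), a ratio of 0.694, with an unadjusted p of 0.0139 and an adjusted p of 0.895 by limma. Without replica 2 of 3 ZT light it was −0.31. At 6 ZT the difference was −0.12 (SE 0.179, adjusted p = 0.857 by limma). The 2 dimmer *Tef* probe sets gave −0.11 (SE 0.113) and 0.08 (SE 0.120) at 3 ZT, and −0.03 and −0.08 without replica 2 of 3 ZT light.

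*Hlf*, the third PAR bZIP gene, had no probe set at an unadjusted p under 0.05 for light against darkness. Its brightest read 11.90, 12.12 and 11.38 in darkness and 11.48, 12.54 and 11.85 in light at 3 ZT, with replica 1 lower and the other replicas higher in light. The difference at 3 ZT was 0.15 (SE 0.179, 95% interval −0.24 to 0.55, adjusted p = 0.910 by limma), or −0.01 without replica 2 in light, and at 6 ZT it was −0.07 (SE 0.179). The other 3 probe sets of *Hlf* lay between −0.08 and 0.36 at 3 ZT, or between −0.16 and 0.10 without replica 2 in light, and between −0.15 and −0.06 at 6 ZT.

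*Nfil3*, which encodes the repressor at D-boxes, differed little between light and darkness. It stayed between 9.56 and 9.99 in all 15 arrays. The difference was −0.06 (SE 0.0903, 95% interval −0.26 to 0.14) at 3 ZT and −0.05 (SE 0.0903, 95% interval −0.25 to 0.15) at 6 ZT, so the intervals at both times stay within 0.26 of 0. Without replica 2 of 3 ZT light the difference at 3 ZT was 0.01.

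*Bhlhe40* and *Bhlhe41* encode E-box repressors, and *Bhlhe40* is known to respond to light in the brain's central clock. *Bhlhe40* read 9.45, 9.89 and 10.05 in darkness and 8.95, 8.91 and 10.31 in light at 3 ZT, lower in replicas 1 and 2 and higher in replica 3. Its difference there was −0.41 (SE 0.235, adjusted p = 0.895 by limma), and −0.07 without replica 2 of 3 ZT light. At 6 ZT it read 9.37, 10.24 and 10.31 in darkness and 9.29, 10.43 and 10.35 in light, a difference of 0.05 (SE 0.235). *Bhlhe41* lay between 13.09 and 13.45 in 14 arrays and at 12.65 in replica 2 of 3 ZT light. Its differences were −0.24 (SE 0.139, adjusted p = 0.895 by limma) at 3 ZT, or −0.06 without that array, and 0.07 (SE 0.139, 95% interval −0.24 to 0.37) at 6 ZT.

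**Figure D4:**
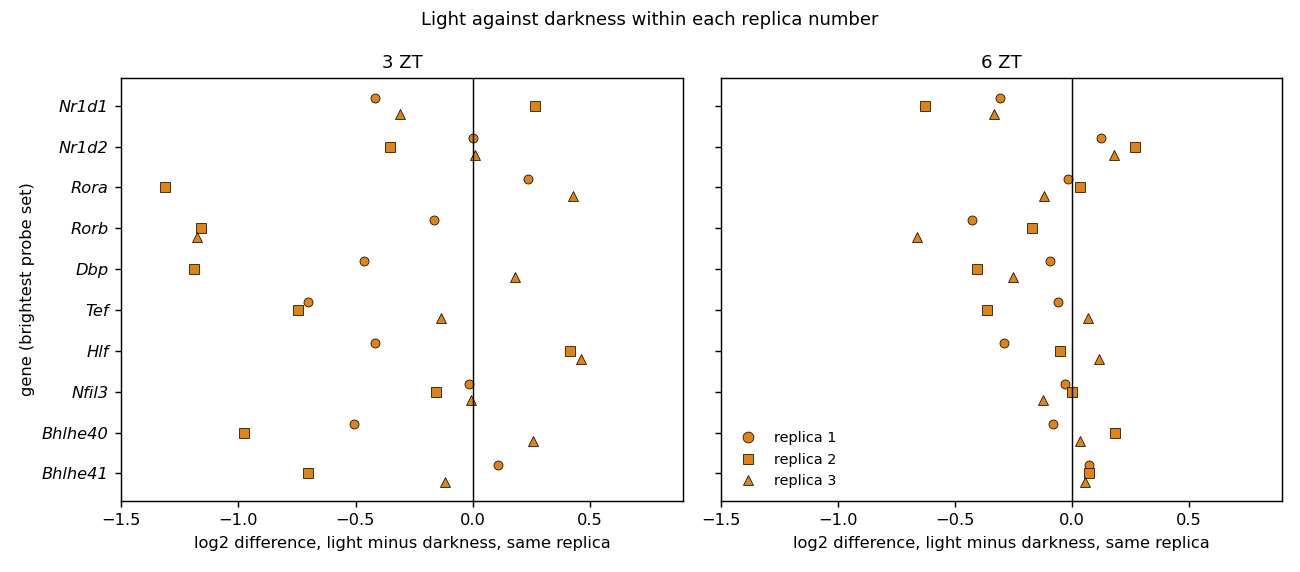
Log2 difference between light and darkness within each replica number for the brightest probe set of the 10 genes, at 3 ZT and at 6 ZT, with a symbol for each replica. All 6 differences of *Rorb* are below 0, from −1.18 to −0.16, and at 3 ZT *Rora* (−1.31), *Dbp* (−1.19) and *Bhlhe40* (−0.97) have their lowest difference in replica 2.

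The comparisons of 3 and 6 ZT in darkness with 0 ZT ask how these genes ran without light. No probe set of the 10 genes passed by limma at 3 ZT, and none had an unadjusted p under 0.05 (1.25% of all probe sets did). At 6 ZT none passed after adjustment and 1 had an unadjusted p under 0.05, against 8.73% of all, and 3.47% in its direction. That was a dim *Tef* probe set with 0.29 (SE 0.113, adjusted p = 0.540 by limma), and its value without both arrays of large *Actb* difference was 0.21. *Dbp* read 10.83, 11.87 and 12.47 at 0 ZT and 11.60, 12.39 and 12.54 at 6 ZT in darkness, higher in every pair but overlapping. Its difference was 0.46 (SE 0.285, 95% interval −0.17 to 1.09, adjusted p = 0.665 by limma), and 0.19 without replica 1 of 0 ZT dark, an array with a large *Actb* difference. *Nr1d1* read 11.01, 11.31 and 11.56 at 0 ZT and differed by 0.27 (SE 0.174, adjusted p = 0.675 by limma) at 6 ZT, and by 0.09 without replica 2 of 6 ZT dark. Between 0 and 6 ZT in darkness lens genes were higher at 6 ZT in 10 of 10 (median 1.32), 4 of them at an unadjusted p under 0.05 by limma. Pigment epithelium genes were lower in 6 of 6 (median −0.40), 2 of them at this threshold. The part of these shifts in the values of the 10 genes was not tested.

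The comparisons of both light groups with 0 ZT share the same control. Against it, the brighter *Rorb* probe set was lower in light at both times, and the dimmer one chiefly at 6 ZT. The brighter probe set differed by −0.83 at 3 ZT (adjusted p = 0.344 by limma) and by −0.66 at 6 ZT (adjusted p = 0.508 by limma), and the dimmer one by −0.65 at 6 ZT (adjusted p = 0.443 by limma). An *Nr1d2* probe set was 0.31 higher at 6 ZT in light than at 0 ZT (adjusted p = 0.721 by limma). Without both arrays of large *Actb* difference these values were −0.80, −0.77, −0.52 and 0.28. At 3 ZT in light the dimmer *Rorb* probe set differed from 0 ZT by only −0.08 (SE 0.165, adjusted p = 0.903 by limma) with all arrays. At an unadjusted p under 0.05 there were 2 of the 19 in 3 ZT light against 0 ZT dark and 4 in 6 ZT light, against 7.68% and 6.18% of all. Those in 3 ZT light were both lower (the brighter *Rorb* and the brightest *Tef*, −0.48). In 6 ZT light 3 were lower, among them the dimmer *Rora* (−0.24), and 1 higher. Without replica 2 of 3 ZT light, 2 were higher and 1 lower in 3 ZT light, against 6.05%. Without replica 1 of 0 ZT dark, 4 were lower there and 0 higher, against 9.26%. A ratio above 1.6 or below 0.7 to the 0 ZT array of the same number in all 3 replicas, a rule after the study's methods, was met by none of the 19 probe sets in any of the 4 later conditions. Among all probe sets, 0.058% lay above and 0.0741% below it in 3 ZT light, and 0.0709% above and as many below it in 6 ZT light. In darkness these shares were 0% and 0.0161% at 3 ZT and 0.0644% and 0.287% at 6 ZT.

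Of 14 other clock genes on the array, taken by their brightest probe set, none passed after adjustment in any of the 9 tests by limma. At an unadjusted p under 0.05, 3 of the 14 were lower in light at 3 ZT, against 2.64% of all probe sets, and none at 6 ZT, against 2.97%. Without replica 2 of 3 ZT light none of the 14 had an unadjusted p under 0.05 at 3 ZT, against 3.03% of all in either direction. The 4 with the lowest p for any difference among the conditions were *Per3*, *Cry2*, *Csnk1e* and *Csnk1d*. *Per3*, a repressor of the core loop, read 9.34, 9.90 and 9.94 in darkness and 8.30, 9.10 and 9.87 in light at 3 ZT. At 6 ZT it read 8.22, 9.66 and 9.56 in darkness and 8.58, 10.43 and 9.96 in light. Light was thus the lower one in all pairs at 3 ZT and the higher one in all pairs at 6 ZT, and the effects differed by 1.15 (SE 0.332, adjusted p = 0.776 by limma). *Cry2*, another core repressor, differed by −0.41 (SE 0.142) at 3 ZT and 0.06 at 6 ZT. The casein kinase genes *Csnk1e* and *Csnk1d*, whose products phosphorylate PER proteins, differed by −0.35 (SE 0.133) and 0.01 (SE 0.0567) at 3 ZT. At 6 ZT they differed by −0.22 and 0.11. Without replica 2 of 3 ZT light the differences at 3 ZT were −0.40 for *Per3*, −0.27 for *Cry2*, −0.30 for *Csnk1e* and −0.01 for *Csnk1d*.

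Of the genes tied to RORB in photoreceptors 4 were measured, *Crx*, *Opn1sw*, *Opn1mw* and *Arr3*. None passed after adjustment in any of the 9 tests by limma. At 3 ZT all 4 were lower in light, with a median of −0.33 against 0.0003 over all probe sets, and 1 of them had an unadjusted p under 0.05. This rested on 1 array, since the mean of the 4 differed between light and darkness by −0.04 in replica 1, −0.92 in replica 2 and −0.05 in replica 3, and replica 2 in light is the array with the largest *Actb* difference. Without it 2 of the 4 were higher and 2 lower at 3 ZT, with a median of −0.06 and none at an unadjusted p under 0.05. At 6 ZT 2 were higher and 2 lower, and *Arr3*, the cone arrestin gene, was 0.43 higher in light with an unadjusted p of 0.0155 and an adjusted p of 0.529 by limma.

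Markers of other tissues and of other retinal cells were set beside these values. At 6 ZT the 10 lens genes, crystallins among them, averaged 11.42 to 12.33 in darkness and 8.46 to 11.32 in light and were lower in light in 10 of 10, with a median of −1.64. The 6 pigment epithelium genes averaged 10.32 to 11.14 in darkness and 10.93 to 11.73 in light and were higher in 6 of 6, with a median of 0.62. At 3 ZT the lens genes averaged 9.89 to 11.07 in darkness and 9.89 to 11.99 in light, and the pigment epithelium genes 10.99 to 11.57 and 11.25 to 11.75. Here 9 of the 10 lens genes were higher in light (median 0.53), and 10 of 10 without replica 2 in light (median 1.32). Of the 6 pigment epithelium genes 5 were higher at 3 ZT (median 0.31, or 0.29 without replica 2 in light). The 2 blood genes averaged 9.33 to 9.81 in darkness and 8.81 to 11.68 in light at 6 ZT. None of these marker genes passed after adjustment by limma for light against darkness, while at an unadjusted p under 0.05 there were 5 of the 10 lens and 4 of the 6 pigment epithelium genes at 6 ZT, against 8.53% of all. At 3 ZT there was 1 of each, against 4.59%. Without replica 2 of 3 ZT light these were 4 lens and 0 pigment epithelium genes, against 3.03%. Of 4 Müller glia genes all were lower in light at 3 ZT (median −0.17, or −0.15 without replica 2 in light) and all higher at 6 ZT (median 0.13). Of 6 genes of other retinal neurons 5 were lower at 3 ZT (median −0.11), with 2 at an unadjusted p under 0.05, and 4 lower at 6 ZT (median −0.05), and without replica 2 of 3 ZT light 4 were lower at 3 ZT, 1 of them at an unadjusted p under 0.05. The lowest among these was the brightest probe set of *Grm6*, a receptor gene of ON bipolar cells, with −0.83 (SE 0.230, adjusted p = 0.895 by limma) at 3 ZT. Without replica 2 of 3 ZT light its difference was −1.01. Of 4 microglia genes 3 were lower at 3 ZT (median −0.01) and all at 6 ZT (median −0.09). *Rorb*, lower at both times, and *Nr1d1*, lower at 6 ZT, stand beside these shifts, whose part in their values was not tested.

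Genes most like a member in their course over the 15 arrays were found by the root mean square of the difference in log2 value, after the mean of each replica number was taken off, among 14207 genes. For *Rorb*, whose own root mean square was 0.388, they were *Chtf18* (0.176), *Spc25* (0.195) and *Zmynd10* (0.195). For the dimmer *Rora* probe set (own 0.127) they were *Rnf19b* (0.0489), *Sap30* (0.0505) and *Tgm4* (0.0508). For *Tef* (own 0.294) they were *Tut1* (0.0800), *Cav1* (0.0954) and *Ccdc85c* (0.104). These values share the same 15 arrays, so an array that stands apart for many genes enters each of them.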

How the data were processed

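RNA of 15 rat retina samples, 5 conditions with 3 replicas, was hybridised to Affymetrix RAT230_2 arrays. Per the methods, the authors summarised the scans by Robust Multi-array Average (RMA), a procedure of background correction, quantile normalization and median polish over the probes of a set, and deposited the result in log2 units. The software, and whether replica numbers were normalized as separate sets, are not given in the sources used here. The array medians lay at 8.28 to 8.32, 8.58 to 8.68 and 8.75 to 8.81 for replica numbers 1, 2 and 3. RMA values of dim probe sets can be compressed towards a shared level, which understates their changes.

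The values were used as deposited. A linear model of limma 3.58.1 (R 4.3.3) held a term for each condition and one for each replica number, across all 15 arrays. P-values were adjusted after Benjamini and Hochberg over 31042 probe sets, controls left out, and 0.05 was the threshold. The block came from the replica numbers in the labels, which the methods use for their ratios. Deviations from the condition means correlated at 0.241 to 0.797 between arrays of the same number (30 pairs) and at −0.536 to 0.233 between others (60 pairs), and no 2 arrays were identical. Such closeness can come from processing by number.

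Probe sets with 1 symbol (20832), several (436) or none (9831) follow the array annotation, updated through RefSeq, and sequences and gene starts come from RefSeq GRCr8. All 10 genes are named with every probe set, the 4 other clock genes with the lowest p over the conditions are named, and likeness is given for the 3 member genes with the lowest p. The members, lists and rules were chosen with earlier results of these data known. The alternatives were no replicate block, array quality weights (statmod 1.5.0), renormalization by quantiles or by cyclic loess, removal of dim probe sets, fits of only the arrays compared, other ratio limits, and arrays left out. The fit was tested on simulated data. Figures were drawn with matplotlib 3.10.9. Columns of the authors' own comparisons were not among the values used.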

Additional observations from a re-analysis of the deposited data

How the results depend on the processing

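Over all comparisons and alternatives, the count of these probe sets that passed stayed within 1.5 times the reported one in 217 cases and moved in 8. Without the replicate block 0 of the 19 probe sets passed limma's threshold in each comparison, as with it, so the block changed no call of limma. With array quality weights, which gave 6 ZT light replica 3 a weight of 7.45 and 3 ZT light replica 2 one of 0.16, 3 of the 19 passed for light against darkness at 6 ZT (both *Rorb* probe sets and the dimmer *Rora* probe set), 4 for 6 ZT light against 0 ZT dark (these and a probe set of *Nr1d2*) and 1 for any difference (*Rorb*). Their adjusted p lay between 0.0189 and 0.0494, and over all probe sets 2311, 676 and 191 passed in the same order. By the ratio rule for 6 ZT light, 1 probe set (*Rorb*) passed with no replicate block. Leaving out a replica number gave 0 to 1 passing by that rule in 3 ZT light (*Rorb* without replicate 1), 0 to 1 in 6 ZT light (a *Rorb* probe set without replicate 1 or 2) and 0 to 1 in 6 ZT dark (*Nr1d2* without replicate 3). The mean light effect was followed through the alternatives for both *Rorb* probe sets and the brightest probe set of the other genes except *Nr1d2*. The remaining probe sets were not followed in this way. Among those followed, it changed sign for 3 genes that had not passed. For *Rora* (brighter) it was 0.18 with weights, 0.15 without both arrays of large *Actb* difference and, with each array left out, −0.30 to 0.15, positive without 3 ZT light replicate 2. For *Hlf* it was −0.043 without both arrays and −0.064 to 0.143 with each array left out, negative without 3 ZT light replicate 2, 3 ZT dark replicate 3 or 6 ZT light replicate 3. For *Bhlhe41* it was 0.010 with weights, 0.0073 without both arrays and −0.144 to 0.0037 with each array left out, positive without 3 ZT light replicate 2. The effect for *Tef* at 6 ZT ran from −0.22 to 0.043, positive without 6 ZT dark replicate 2. With each array left out in turn, the mean light effect of the brighter *Rorb* probe set ran from −0.75 to −0.55 with adjusted p from 0.226 to 0.975, and 0 of the 19 passed. The causes were not tested. The 3 arrays per condition limit the precision of each value.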
